A study of Mus musculus with 9 samples.

Results

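The model group was set against the control group, array by array, to separate the gene differences that all 3 model arrays held from those that 1 or 2 of them carried. The comparison took 6 of the 9 arrays of the series. The 3 model arrays held brain RNA of APP/PS1 transgenic mice on a C57/6J background, which received intranasal saline daily for 30 days, 5 μL each day. The 3 control arrays held brain RNA of C57/6J mice of the same age that were given saline in the same way. The study obtained its APP/PS1 mice when they were 8 months old, and all brains were taken after the Morris water maze, a test of spatial memory. Neither the line nor the promoter of the transgenes is named in the sources used here, and no brain region is given. Gene levels are log2 values, so a difference of 1 is a doubling. Each of 19938 genes was represented by 1 probe set, all 19938 genes were described, and a gene's difference in an array is its level minus the mean of the 3 control arrays.

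APP/PS1 mice overproduce amyloid peptides from their transgenes, and they deposit amyloid plaques in cortex and hippocampus as they age. Microglia, the resident macrophages of the brain, gather at plaques and switch on a known set of lysosomal, lectin and chemokine genes, and astrocytes nearby raise their filament protein Gfap. Whole-brain RNA mixes neurons of all regions with glia, vessels, blood and whatever tissue is taken along, so the level of a gene also follows the makeup of the piece dissected.

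The labels were checked for tissue and genotype. Slc17a7, the vesicular glutamate transporter of forebrain excitatory neurons, lay between 11.09 and 12.40 in the 6 arrays, and Gfap lay between 9.34 and 10.65. App was 12.57, 12.56 and 12.62 in the control arrays and 12.99, 12.95 and 13.02 in the model arrays, a difference of 0.40 (standard error 0.050; limma adjusted p = 0.243). All 3 model arrays lay above all 3 control arrays, although the array is designed on mouse sequence and how well it reads a human transgene is not known. Of the 13 genes listed for the amyloid precursor and its secretases, 12 had a higher model mean, against 45.0% of all genes. For 4 of the 13 all model arrays lay above all control arrays, against 4.83% of all genes. The medians of the list were 0.10, 0.16 and 0.07 in model groups 1, 2 and 3. Within it, Bace1 and Adam10, which encode the beta- and alpha-secretases, stayed within 0.08 and 0.13 of the control mean in every model array. The 8 housekeeping genes differed by -0.09 to 0.23 in the model mean. Sex did not match between the groups. Xist, the RNA that silences an X chromosome in female cells, was high in all model arrays. The Y-linked genes Uty, Eif2s3y and Kdm5d were high in all control arrays. Genotype and sex therefore cannot be told apart in this comparison.

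With limma over the 6 arrays, 5 of the 19938 genes (0.0251%) passed an adjusted p of 0.05, and 4 of them are sex-linked. Xist was 5.22, 5.20 and 5.69 in the control arrays and 11.18, 11.78 and 11.60 in the model arrays, a 71.0-fold difference (log2 6.15, standard error 0.20, adjusted p = 0.00114). Uty, a Y-linked histone demethylase gene, was 7.97, 8.22 and 8.17 in the control arrays and 3.92, 3.83 and 3.92 in the model arrays, 18.7-fold lower (standard error 0.080 on the log2 scale, adjusted p = 8.82e-05). Eif2s3y, a Y-linked initiation factor gene, and Kdm5d, a Y-linked histone demethylase gene, were 17.1-fold and 7.58-fold lower (adjusted p = 0.00204 and 0.00258). The control and model arrays were far apart for these genes, and no array of either group was intermediate. Usp9y, the other gene of the Y-linked list, lay between 3.51 and 3.72 in all 6 arrays. Of 9 measured genes on the Y chromosome, 3 lay lower in all model arrays than in all control arrays. The X-linked genes Kdm6a, Kdm5c, Eif2s3x and Ddx3x, which escape silencing, were higher by 0.31 to 0.57 in the model mean, and none of them passed after adjustment.

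Ccl6, a chemokine gene of microglia and other myeloid cells, was the only autosomal gene that passed. It was 6.47, 6.51 and 6.42 in the control arrays and 8.28, 8.10 and 7.97 in the model arrays. All 3 model arrays stood well above a tight control group, 3.14-fold on average (log2 1.65, standard error 0.087, adjusted p = 0.00686). In the arrays of the HPYD group, which came from APP/PS1 mice given the peptide HPYD and are compared with the same control arrays, Ccl6 was 7.82 and 8.24 in the first 2 and 6.11 in the array labelled HPYD group 3. That array had Xist at 5.22 and Uty at 8.20, against 11.33 and 11.47 for Xist in the others of its label. The labels give no sex. Its levels of App and of the prion protein gene Prnp, 12.53 and 11.52, lay below all control arrays. In HPYD groups 1 and 2 App was 12.98 and 13.01 and Prnp was 12.54 and 12.47. For a sample labelled as transgenic, the App and Prnp levels of HPYD group 3 went against the label. No HPYD array was in the fit of the 6 arrays. With all 9 arrays fitted together, 0 genes passed limma's adjusted p, while 572 higher and 408 lower genes had an unadjusted p under 0.05. The calls also depended on single arrays: leaving out model group 1, 2 or 3 gave 5, 7 and 127 genes. Without control group 1, 2 or 3, 3, 3 and 2 genes passed, and Ccl6 was lost each time (adjusted p = 0.143, 0.118 and 0.119) at log2 differences of 1.66, 1.67 and 1.63. Kdm5d was also lost each time (adjusted p = 0.0601, 0.0574 and 0.0728), and Eif2s3y was lost without control group 3 (adjusted p = 0.0680). The promoter of Ccl6 is shown because this gene is the autosomal call. It is the RefSeq stretch of 300 bases from 250 before the start at chr11:83593038-83593337 of GRCm38.p6, minus strand, with the letters AGGAAG of the ETS factor core, searched on both strands, in capitals, where they read CTTCCT because both matches lie on the opposite strand.
Ccl6: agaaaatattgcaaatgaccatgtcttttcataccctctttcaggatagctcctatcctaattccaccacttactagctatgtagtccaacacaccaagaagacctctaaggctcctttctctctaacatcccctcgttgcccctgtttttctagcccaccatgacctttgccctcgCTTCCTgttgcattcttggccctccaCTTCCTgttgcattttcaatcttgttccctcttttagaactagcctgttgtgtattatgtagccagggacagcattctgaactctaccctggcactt

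The 2 matches begin 73 and 47 bases before the start. These letters were chosen after the sequence was seen, and 36.9% of the 15614 measured genes with a promoter held them. Of the 52 genes that lay higher in all 3 model arrays, 40 had a promoter and 22 held the letters. Of the genes that lay lower in all 3, 13 had a promoter and 8 held the letters.

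Before adjustment 924 genes (4.63%) had a limma p under 0.05, of which 570 (2.86%) had the higher mean in the model arrays and 354 (1.78%) in the control arrays. The balance of directions moved with the scaling, from 61.7% higher with the deposited values to 49.4% with quantile normalization and 43.8% with the arrays shifted to one median. Without control group 1 the counts were 216 and 137, and without model group 3 they were 1224 and 764. All 3 model arrays lay above all 3 control arrays for 964 genes (4.83%) and below them for 934 (4.68%). For a single gene with complete separation, the exact two-sided permutation test gives p = 0.1, the smallest that 3 arrays against 3 allow, so the arrays are described one by one below. Whether the arrays of a group came from separate mice is not stated by the labels or the methods, so the p-values describe only the variation among these arrays, which may be technical.

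The 3 model arrays did not depart from the control group to the same extent. A gene was counted as different in an array when it lay at least 0.5 from the control mean and outside the range of the 3 control arrays. Model group 3 differed in 206 genes, model group 1 in 837 and model group 2 in 2776. As a measure of the spread without genotype, control groups 1, 2 and 3 differed in 137, 271 and 445 genes when each was set against the other 2 control arrays. Model group 3 set against the same pairs differed in 179, 283 and 339 genes, so its count was no larger than that of a control array for the third pair. Model group 2 differed in 2691 to 2992 genes against these pairs.

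Of all genes, 52 (0.261%) lay higher and 16 (0.0802%) lower in all 3 model arrays by this rule. A further 445 (2.23%) lay higher and 95 (0.476%) lower in 2 model arrays, and 1116 (5.6%) lay higher and 1299 (6.52%) lower in 1 array. Model groups 1 and 2 together carried 405 (2.03%) of the 445, and model group 2 alone carried 928 of the 1116 and 1226 of the 1299. Another 50 genes lay higher in some model arrays and lower in others.

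**Figure D1:**
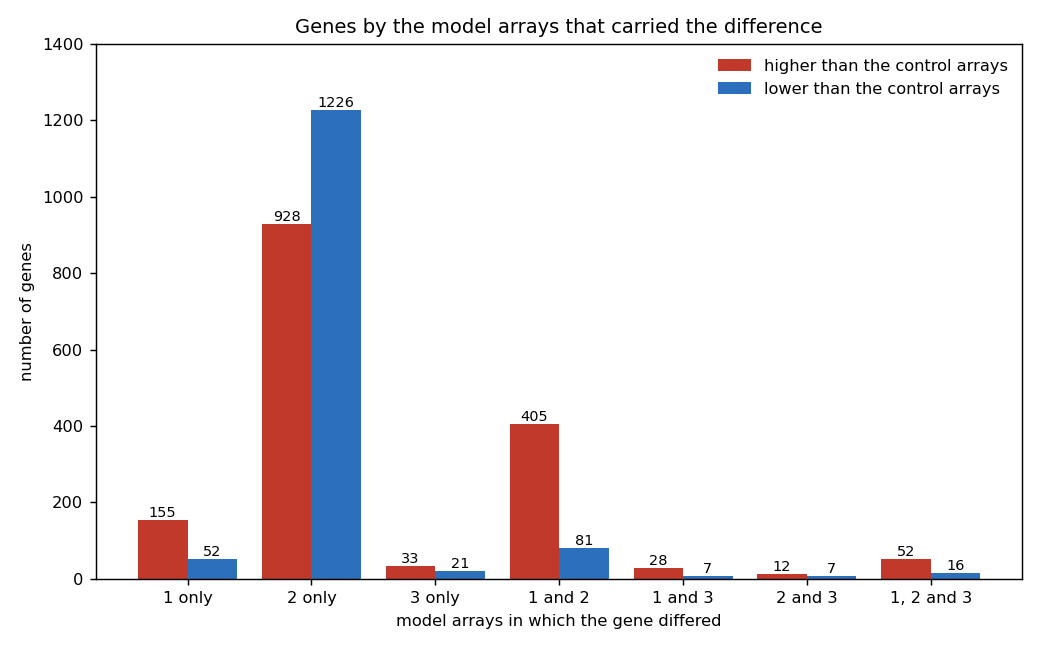
Number of genes (vertical axis) by the model arrays in which the gene lay at least 0.5 log2 units from the control mean and outside the control range (horizontal axis), with higher genes in red and lower genes in blue. The tallest bars are those of model group 2 alone (928 and 1226 genes) and the next is that of model groups 1 and 2 higher (405 genes), while 52 and 16 genes met the rule in all 3 arrays.

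Among the 68 genes that met the rule in all 3 model arrays, 18 differed by a like amount, with the largest of the 3 differences at most 1.5 times the smallest. In this even set, 11 genes were higher: Xist, Prnp, Chac1, Cd9 and the immune genes Ccl6, Cd52, Cd84, Clec7a, Cd53, Fyb and Tlr13. The 7 lower ones were Uty, Eif2s3y, Kdm5d, Nnt, Wdfy1, Brs3 and Hap1. Tlr13 and Brs3, like Xist, lie on the X chromosome. For the remaining 50, 23 had their largest difference in model group 2, more than 1.5 times the next, and 14 were more than 1.5 times larger in both model groups 1 and 2 than in model group 3. The ratio of 1.5 was chosen after the values were seen.

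**Figure D2:**
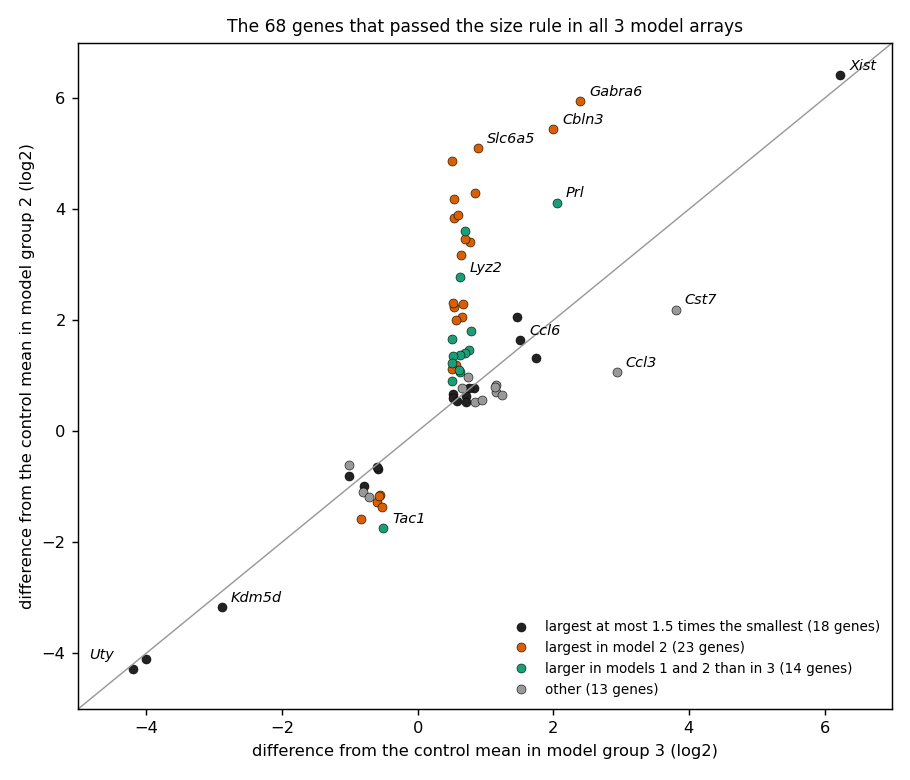
Difference from the control mean (log2) in model group 2 (vertical axis) against model group 3 (horizontal axis) for the 68 genes that met the size rule in all 3 model arrays, with a line of equal differences. Black points are the 18 genes with like differences in the 3 arrays, orange points the 23 with the largest difference in model group 2, green points the 14 larger in model groups 1 and 2 than in 3, and grey points the other 13. Gabra6 and Cbln3 lie far above the line, and Cst7 and Ccl3 lie below it.

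Prnp, the prion protein gene, was 11.78, 11.81 and 11.76 in the control arrays and 12.55, 12.42 and 12.50 in the model arrays. The 3 model arrays were alike and 1.63-fold above the control mean (log2 0.71, standard error 0.055, adjusted p = 0.0533). The mouse prion promoter drives the transgenes of a widely used APP/PS1 line, as background. Whether probes for Prnp read transgene transcripts was not tested. Nnt, the transhydrogenase of the inner mitochondrial membrane, was 8.96, 8.87 and 9.01 in the control arrays and 7.98, 7.96 and 8.15 in the model arrays, 1.89-fold lower (standard error 0.075 on the log2 scale, adjusted p = 0.0602). The substrain C57BL/6J is known for a deletion within Nnt, and here the lower level was that of the transgenic group and not of the controls labelled C57/6J, so the substrains of the groups could not be settled. Wdfy1, an adaptor of Toll-like receptor signalling, was 8.12, 7.84 and 8.10 in the control arrays and 7.07, 7.22 and 7.01 in the model arrays (1.9-fold lower, adjusted p = 0.164). Control and model arrays stood apart for both genes, and HPYD groups 1 and 2 lay at 7.95 and 7.96 for Nnt and at 7.01 and 7.13 for Wdfy1. The array labelled HPYD group 3 lay between the groups for both, at 8.57 and 7.64. With that array left out of a fit of the other 8, Prnp and Nnt passed limma's adjusted p (0.0127 and 0.0116), and they also passed after quantile normalization (0.0206 and 0.0424).

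**Figure D3:**
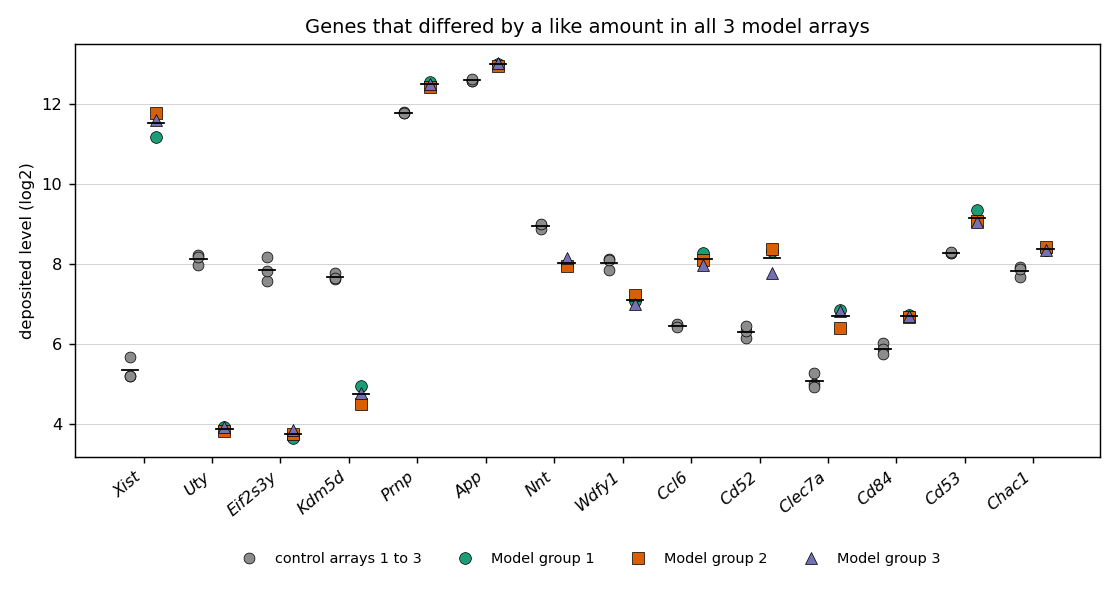
Deposited log2 level (vertical axis) of 14 genes (horizontal axis) in the 3 control arrays (grey) and in model group 1 (green circles), 2 (orange squares) and 3 (violet triangles), with lines at the group means. For each gene the 3 model arrays lie together and apart from the control arrays, with Xist near 11.52 against 5.37 and Ccl6 at 8.12 against 6.47. App, at 12.99 against 12.58, did not reach the size rule.

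Genes of microglia at plaques were 9 of the 52 genes that lay higher in all 3 model arrays, while 5 of the 52 were genes of cerebellar granule cells and 25 were in no list. Of 29 plaque genes measured, 27 had a higher model mean, against 45.0% of all genes, and 20 had an unadjusted p under 0.05 and were higher, against 2.86% of all genes. Their median difference was 0.65, 0.41 and 0.42 in model groups 1, 2 and 3, against -0.01, -0.02 and -0.00 for all genes, and it lay between -0.06 and 0.04 in the control arrays. Of the others of the 29, 7 were carried higher by 2 arrays and 1 by 1 array, against 2.23% and 5.6% of all genes. In RNA of mixed tissue, more cells of a type and more RNA per cell cannot be told apart.

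Clec7a, the lectin receptor dectin-1, was 5.01, 5.29 and 4.94 in the control arrays and 6.86, 6.40 and 6.82 in the model arrays (3.05-fold, log2 standard error 0.16, adjusted p = 0.118). Cd52, a small surface glycoprotein of leukocytes, was 6.15, 6.34 and 6.45 in the control arrays and 8.33, 8.37 and 7.78 in the model arrays (3.6-fold, adjusted p = 0.118). Cst7, which encodes cystatin F, an inhibitor of lysosomal cathepsins, was 5.50, 5.95 and 6.40 in the control arrays and 9.36, 8.14 and 9.75 in the model arrays. It had the largest average difference of this list, 8.79-fold, with the least of it in model group 2 (log2 standard error 0.46, adjusted p = 0.470). Tyrobp, the signalling adaptor of Trem2, was 9.35, 9.42 and 9.47 in the control arrays and 10.70, 10.26 and 10.58 in the model arrays. The control and model arrays did not overlap for any of these genes, and none of them passed after adjustment. Tyrobp was among the 7 genes that passed without model group 2, and both Tyrobp and Clec7a were among the 9 that passed with array weights.

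Model group 2 was the lowest of the model arrays for many microglial genes. Of the list, 5 genes lay higher by the size rule in model groups 1 and 3 and not in 2, against 0.14% of all genes. Trem2, a receptor for lipids and plaque components, was 7.89, 7.86 and 8.03 in the control arrays, 8.80 and 9.05 in model groups 1 and 3 and 8.04 in model group 2. Cd68, a lysosomal membrane protein, was 8.20, 8.22 and 8.69 in the control arrays, 9.55 and 9.67 in model groups 1 and 3 and 8.81 in model group 2. Itgax, the integrin CD11c, differed by 0.65 and 1.01 in model groups 1 and 3 and by 0.12 in model group 2. In these genes model group 2 stood at or just above the control arrays, and model groups 1 and 3 stood together.

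Further myeloid genes of the shared set, named after their values were seen, ranged from even to uneven. Gpnmb, a glycoprotein of lipid-laden macrophages, was 6.61, 6.67 and 6.89 in the control arrays and 7.60, 7.43 and 7.88 in the model arrays. Mpeg1, a pore-forming protein of macrophages, was 7.23, 7.41 and 7.51 in the control arrays and 8.68, 8.04 and 8.63 in the model arrays. The groups did not overlap for these genes. Plek, Itgb2 and Csf3r, which granulocytes also express, were larger in model groups 1 and 2 than in 3. Csf3r, the receptor for granulocyte colony-stimulating factor, was 6.67, 6.45 and 6.69 in the control arrays and 7.57, 7.70 and 7.21 in the model arrays.

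Model group 2 was low for genes of microglia at rest. Of 17 homeostatic genes, 12 had a higher model mean, 1 was higher at an unadjusted p under 0.05, where 2.86% of all genes were, and the medians were 0.13, -0.30 and 0.36 in model groups 1, 2 and 3. P2ry12, the purinergic receptor that defines these cells, was 7.75, 7.74 and 7.84 in the control arrays and 7.83, 7.27 and 7.98 in the model arrays. Fcrls was 8.28, 8.39 and 8.48 in the control arrays and 9.16, 7.80 and 9.30 in the model arrays. Model group 2 lay below all control arrays for both genes while the other model arrays lay above or among them. The complement genes C1qa, C1qb and C1qc, which microglia make, differed by 0.48 to 0.80 in model groups 1 and 3 and by -0.19 to 0.03 in model group 2. C4b, a complement gene of astrocytes and other glia, met the rule in all 3, with differences of 1.01, 0.52 and 0.84.

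Lysosomal proteases and membrane proteins differed by small amounts in one direction. All 20 genes measured had a higher model mean and 15 were higher at an unadjusted p under 0.05, against 45.0% and 2.86% of all genes, and 0 passed after adjustment by limma. In model group 2, 18 of the 20 lay above the control mean. Their medians were 0.31, 0.27 and 0.25 in model groups 1, 2 and 3, and 0 of the 20 met the size rule in all 3 arrays. Ctsd, the aspartic protease cathepsin D, was 11.52, 11.73 and 11.49 in the control arrays and 12.09, 11.86 and 12.13 in the model arrays. Ctss, a cysteine protease of microglia, differed by 0.57, 0.15 and 0.62, and Grn, the progranulin gene, by 0.47, 0.19 and 0.29. Toll-like receptors and their adaptors were alike in this, with 18 of 18 higher in the mean (45.0% of all genes), 6 higher at an unadjusted p under 0.05 (2.86% of all genes) and medians of 0.28, 0.16 and 0.16. Tlr13, a sensor of bacterial ribosomal RNA, was the member that met the rule in all 3 arrays, with differences of 0.53, 0.54 and 0.59.

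Gfap, the filament protein of astrocytes, was 9.58, 9.57 and 9.34 in the control arrays and 10.65, 10.07 and 10.44 in the model arrays, 1.86-fold higher on average (adjusted p = 0.738). All 3 model arrays lay above the control arrays. The same held for 3 of the 17 genes of the reactive astrocyte list, Gfap included, against 4.83% of all genes. The medians of the 17 were 0.39, 0.36 and -0.01 in model groups 1, 2 and 3. Vim and Cd44, which many cell types share, differed by 0.67 and 0.89 in model group 1, by 1.04 and 1.03 in model group 2 and by -0.13 and -0.14 in model group 3. Serpina3n, an inhibitor made by reactive astrocytes, was 10.13, 10.43 and 9.95 in the control arrays and 10.53, 9.79 and 10.49 in the model arrays.

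Chac1, which breaks down glutathione, was 7.69, 7.93 and 7.89 in the control arrays and 8.34, 8.43 and 8.36 in the model arrays. The model arrays lay close together, 1.45-fold above the control mean (log2 0.54, standard error 0.08, adjusted p = 0.468). The list of the integrated stress response, to which it belongs, had small medians, of 0.14, 0.11 and 0.08. Of its 18 genes, Chac1 included, 14 had a higher model mean and 4 were higher at an unadjusted p under 0.05 (2.86% of all genes). For 6 of the 18 all model arrays lay above all control arrays (4.83% of all genes). By the size rule, 3 lay higher in 1 model array (5.6% of all genes). Atf4, the factor at the head of this response, differed by 0.23, 0.19 and 0.33, and Ddit3, Trib3 and Asns by -0.33 to 0.17. The Chac1 promoter is shown because it is the evenly shared gene of this list, and 7 of the 18 list members with a promoter held the same letters, 38.9% against 3.62% of all. It lies at chr2:119350992-119351291 of GRCm38.p6, plus strand (RefSeq), with TGATGNAA, the letters of the composite C/EBP-ATF site, in capitals. The match begins 193 bases before the start on the opposite strand, so it reads TTGCATCA.
Chac1: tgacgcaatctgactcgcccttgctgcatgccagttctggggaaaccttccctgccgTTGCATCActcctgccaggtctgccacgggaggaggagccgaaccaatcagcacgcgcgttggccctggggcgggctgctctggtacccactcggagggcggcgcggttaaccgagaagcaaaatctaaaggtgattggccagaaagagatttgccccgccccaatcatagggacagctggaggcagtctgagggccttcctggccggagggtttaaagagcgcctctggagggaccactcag

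The genes just inside and just outside the size rule differed little in their smallest difference. Ucma and Ppp1r17 were the last genes inside for higher levels, with smallest differences of 0.50 and 0.51, and Ifi207 and Pcp2 were the first outside, at 0.50 and 0.49. For lower levels Tac1 and Brs3 were the last inside, with sizes of 0.50 and 0.52, and Oprk1 and Glra3 the first outside, at 0.50 and 0.47. Brs3, inside, had differences of -0.52, -0.67 and -0.59, and Glra3, outside, had -0.48, -0.58 and -0.47. With a size of 0.3 the shared genes were 119 higher and 48 lower, and with a size of 1 they were 9 and 3. Without control group 3, 69 genes in place of 16 were shared lower. Leaving out a model array loosens the rule, because only the 2 arrays left must differ, so the count cannot fall. By this looser rule 85 genes were shared higher without model group 2 and 472 without model group 3. Without the latter, 97 were shared lower.

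The 405 genes that lay higher in model groups 1 and 2 but not in model group 3 were led by genes of tissues outside the brain. Of 30 skeletal muscle genes, 25 were among them, against 2.03% of all genes. The medians of the list were 2.07, 3.62 and 0.06 in model groups 1, 2 and 3. Myl1, a light chain of fast muscle myosin, was 5.77, 5.73 and 5.90 in the control arrays and 10.40, 11.74 and 5.46 in the model arrays. Acta1, skeletal muscle actin, was 7.80, 7.76 and 7.88 in the control arrays and 10.23, 11.93 and 7.86 in the model arrays. Model group 3 stood with the control arrays for both genes. For 30 of 30 members the model mean was higher, and 2 were higher at an unadjusted p under 0.05, against 45.0% and 2.86% of all genes. For 10 of the 30 all 3 model arrays lay above all control arrays, against 4.83% of all genes. In the HPYD arrays the median was 0.02, 0.66 and 0.08.

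Cox8b, the muscle and brown fat form of a respiratory chain subunit, was the muscle gene that met the rule in all 3 arrays. It was 6.05, 6.91 and 6.49 in the control arrays and 9.93, 10.10 and 7.19 in the model arrays, so model group 3 stood just above the highest control array. Its promoter is shown because CAGCTG, the E-box read by the myogenic factors, was in 12 of 22 muscle promoters, 54.5% against 18.4% of all. In the other lists searched the share ranged from 11.1% for granulocyte genes to 37.5% for plaque-associated microglia. The Cox8b promoter lies at chr7:140900397-140900696 of GRCm38.p6, minus strand (RefSeq), and its 2 matches, in capitals, begin 19 bases before and 16 after the start. These letters read the same on both strands.
Cox8b: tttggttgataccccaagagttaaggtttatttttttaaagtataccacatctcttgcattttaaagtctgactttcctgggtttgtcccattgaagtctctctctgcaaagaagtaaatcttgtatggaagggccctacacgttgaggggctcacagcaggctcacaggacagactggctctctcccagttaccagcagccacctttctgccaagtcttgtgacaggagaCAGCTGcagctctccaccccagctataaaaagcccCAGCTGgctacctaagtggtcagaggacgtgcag

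Genes of granulocytes and their bone marrow precursors were higher in the same arrays. The medians of the 22 genes were 2.77, 3.19 and -0.37, and between -0.05 and 0.08 in the control arrays. S100a8, a calcium-binding protein of neutrophils, was 6.12, 6.60 and 6.63 in the control arrays and 9.91, 10.53 and 5.57 in the model arrays. Ngp, the neutrophilic granule protein, was 8.31, 9.13 and 8.50 in the control arrays and 12.33, 12.45 and 6.05 in the model arrays. Model group 3 lay below all control arrays for both genes. Of the 22, 9 lay above the control range in model groups 1 and 2 and below it in model group 3. Of all genes, 0.251% lay higher in some model arrays and lower in others. Chil3, a chitinase-like protein of myeloid cells, was 4.12, 4.48 and 4.32 in the control arrays and 8.23, 8.22 and 4.36 in the model arrays. The S100a8 promoter is shown for this list, in which GAGGAAGT, letters read by the myeloid factor PU.1, was held by 6 of 18 promoters, 33.3% against 3.24% of all. It lies at chr3:90668821-90669120 of GRCm38.p6, plus strand (RefSeq), and the match in capitals begins 172 bases before the start on the opposite strand, reading ACTTCCTC.
S100a8: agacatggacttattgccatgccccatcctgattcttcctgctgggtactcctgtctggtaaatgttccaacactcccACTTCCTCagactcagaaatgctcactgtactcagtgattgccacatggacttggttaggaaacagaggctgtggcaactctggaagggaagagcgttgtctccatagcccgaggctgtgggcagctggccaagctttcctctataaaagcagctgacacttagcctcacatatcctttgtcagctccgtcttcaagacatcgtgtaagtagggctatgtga

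Other blood, fat and bone genes followed the same arrays. The 9 erythroid genes had medians of 0.75, 1.98 and -0.25, with Slc4a1, the band 3 anion exchanger of red cells, at 6.30, 6.68 and 6.45 in the control arrays and 8.01, 9.57 and 6.11 in the model arrays. The 13 adipocyte genes had medians of 1.25, 0.73 and -0.02. Ucp1, the uncoupling protein of brown fat, was at most 5.18 in the control arrays and 9.17, 6.12 and 5.21 in the model arrays, so here model group 1 was the highest. Car3, a carbonic anhydrase of muscle and fat, had the largest difference of the 405 genes by the smaller of the 2 arrays, with 11.35 and 11.60 in model groups 1 and 2 against 6.02 in model group 3. Genes of bone and cartilage had medians of 0.62, 0.38 and 0.03. The medians of the T cell, liver and major urinary protein lists stayed within 0.06 of the control mean in every model array. By the size rule, 1 liver gene lay higher in model groups 1 and 2, and 1 T cell gene lay lower in model group 2.

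Proliferation genes were higher in the arrays with raised marrow and muscle genes. All 22 cell cycle genes had a higher model mean, against 45.0% of all genes. Model groups 1 and 2 carried 13 and 0 were shared by all 3, against 2.03% and 0.261% of all genes. The medians were 0.65, 1.04 and 0.05. Mki67, the Ki-67 protein of dividing cells, was 6.12, 6.24 and 5.99 in the control arrays and 7.86, 8.85 and 5.97 in the model arrays. Ccna2, the S-phase and mitotic cyclin A, was 6.12, 6.27 and 6.22 in the control arrays and 7.46, 8.32 and 6.02 in the model arrays. Fatty acid oxidation had medians of 0.35, 0.34 and 0.04, with 4 of 18 genes carried by model groups 1 and 2 (2.03% of all genes). In both lists the median of model group 3 was near the control mean. Yet for 9 of the 22 cell cycle genes, model group 3 also lay above all control arrays, as model groups 1 and 2 did. The same held for 2 of the 18 fatty acid oxidation genes, against 4.83% of all genes. The part of the muscle, fat and marrow genes in these lists was not tested.

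Other immune lists divided among the arrays in several ways. Of 18 Fc and C-type lectin receptor genes, 17 had a higher model mean, 11 were higher at an unadjusted p under 0.05 (2.86% of all genes) and 8 were carried by model groups 1 and 2 (2.03% of all genes). The medians were 0.63, 0.80 and 0.23. Clec12a, a lectin of granulocytes and monocytes, differed by 2.39, 2.57 and 0.05, and Clec4e, the lectin Mincle, by 1.04, 1.79 and -0.02. Fcgr1 and Fcgr3, Fc receptors that microglia also use, were highest in model group 3 and differed by 0.55 and 0.60 in model group 1, by 0.33 and 0.27 in model group 2 and by 0.75 and 0.67 in model group 3. Lyz2, the lysozyme of macrophages and granulocytes and a member of the plaque list, met the rule in all 3 arrays, but its differences were 2.55, 2.77 and 0.63. Of 17 inflammasome genes, 15 had a higher model mean and 7 were higher at an unadjusted p under 0.05, against 45.0% and 2.86% of all genes, and the medians of 0.23, 0.19 and 0.16 were alike. Il1b, the cytokine interleukin 1 beta, differed by 0.68, 0.67 and -0.26. Clec12a, Clec4e, Lyz2 and Il1b were high in the arrays in which the granulocyte genes had medians of 2.77 and 3.19, and the part of granulocytes in them was not tested.

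Interferon-induced genes were carried unevenly. Of 32, 28 had a higher model mean and 15 were higher at an unadjusted p under 0.05, against 45.0% and 2.86% of all genes, and 0 met the size rule in all 3 arrays. The medians were 0.29, 0.46 and 0.09. Model group 2 alone carried 10 genes higher and model groups 1 and 2 carried 5, against 4.65% and 2.03% of all genes. Ifit3, an RNA-binding effector, was 8.19, 8.39 and 8.21 in the control arrays and 8.65, 9.32 and 8.49 in the model arrays. Rsad2, the antiviral enzyme viperin, was 6.48, 6.60 and 6.51 in the control arrays and 7.31, 7.77 and 6.53 in the model arrays. Model group 2 was the highest of the 6 arrays for both genes, and model group 3 lay within the control range for Rsad2. The Rsad2 promoter is shown because the interferon response element, searched as GAAA, any pair of bases and GAAA on both strands, was in 13 of 24 promoters of this list, 54.2% against 3.89% of all. It lies at chr12:26456403-26456702 of GRCm38.p6, minus strand (RefSeq), with the match in capitals, which begins 120 bases before the start on the opposite strand.
Rsad2: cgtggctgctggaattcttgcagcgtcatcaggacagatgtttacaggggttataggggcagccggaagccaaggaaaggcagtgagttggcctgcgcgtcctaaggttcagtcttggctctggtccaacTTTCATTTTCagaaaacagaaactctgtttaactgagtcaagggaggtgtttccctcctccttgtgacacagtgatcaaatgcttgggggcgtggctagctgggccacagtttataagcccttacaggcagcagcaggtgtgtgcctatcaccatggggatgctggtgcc

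**Figure D4:**
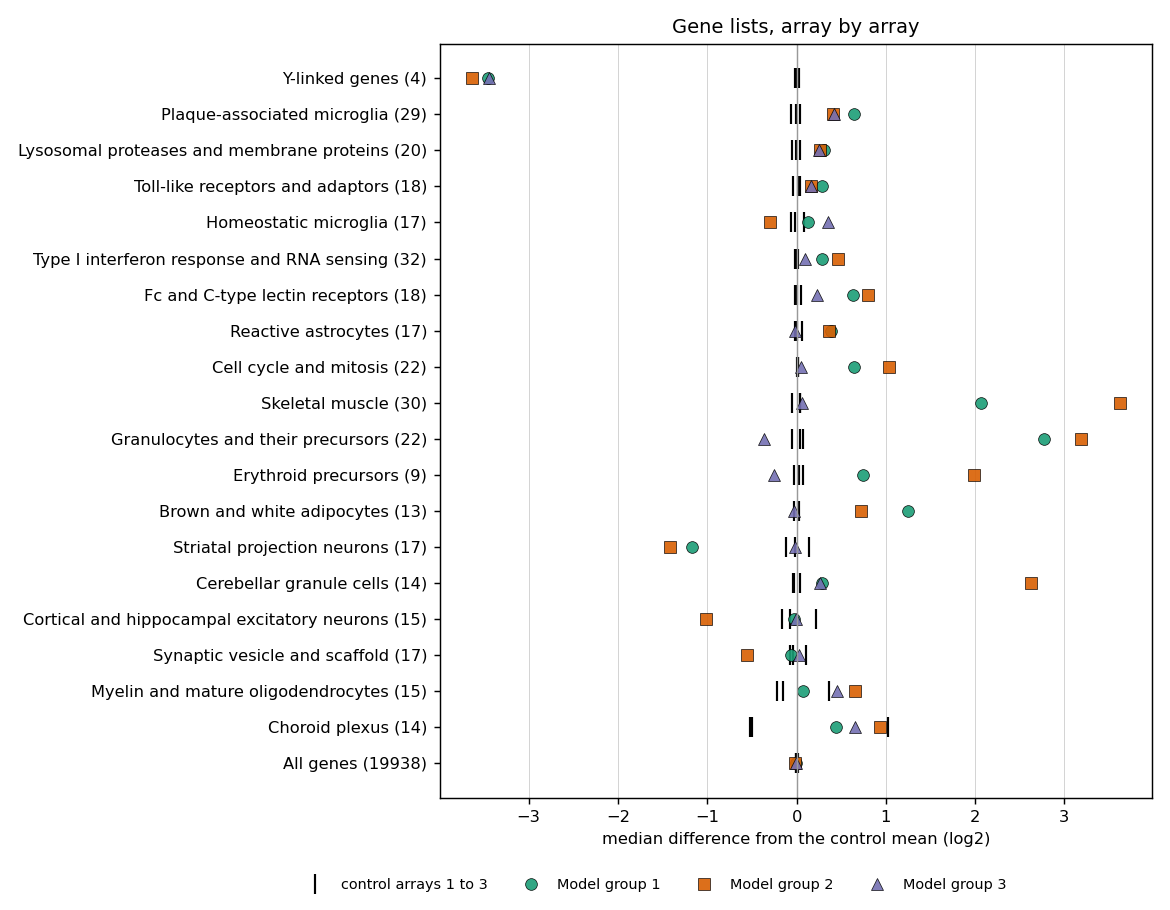
Median difference from the control mean (log2, horizontal axis) over each gene list (vertical axis, number of genes measured in brackets) in the 3 control arrays (black ticks) and in model group 1 (green circles), 2 (orange squares) and 3 (violet triangles). The plaque-associated microglia, lysosomal and Toll-like receptor lists lie above the control arrays in all 3 model arrays, homeostatic microglia lie below them in model group 2 (-0.30), muscle and granulocyte genes lie above them in model groups 1 and 2 (2.07 and 3.62, 2.77 and 3.19), and cerebellar granule cell genes far above in model group 2 (2.63).

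The 81 genes that lay lower in model groups 1 and 2 but not in model group 3 were 0.406% of all genes. Among them were 12 of the 17 genes of striatal projection neurons measured. The medians of this list were -1.18, -1.42 and -0.02, and between -0.12 and 0.14 in the control arrays. Rgs9, which shortens dopamine receptor signalling, was 10.01, 9.86 and 10.07 in the control arrays and 8.06, 7.92 and 9.88 in the model arrays. Drd1, the D1 dopamine receptor, was 9.13, 9.26 and 9.38 in the control arrays and 7.96, 7.36 and 9.09 in the model arrays. Gpr6, a receptor of the indirect pathway, was 9.19, 9.33 and 9.61 in the control arrays and 7.80, 6.77 and 9.35 in the model arrays. Model groups 1 and 2 lay more than 1 log2 unit below the control arrays in these genes, and model group 3 stood among or beside them. The list median was -0.05, -1.23 and -1.29 in the HPYD arrays. Tac1, the substance P precursor of the direct pathway, also met the rule in model group 3, at -1.82, -1.75 and -0.50. Hcrt, the hypothalamic peptide orexin, was 8.96, 9.81 and 6.58 in the control arrays and 6.49, 6.39 and 7.64 in the model arrays, with control group 3 near the model arrays.

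Pituitary hormone genes varied among arrays of both groups. Prl, prolactin, was 6.38, 5.56 and 9.02 in the control arrays and 13.26, 11.10 and 9.03 in the model arrays. It met the size rule in all 3 model arrays, although model group 3 exceeded control group 3 by 0.01. Gh, growth hormone, was 8.35, 6.65 and 10.88 in the control arrays and 13.13, 11.12 and 7.91 in the model arrays. Cga, the common subunit of the glycoprotein hormones, was 6.00, 6.32 and 7.95 in the control arrays and 11.44, 8.70 and 6.64 in the model arrays. Model group 1 was the highest of the 6 arrays for each, and control group 3 was the highest control array for each. Cartpt, a neuropeptide of hypothalamus and striatum, was 8.84, 8.84 and 7.98 in the control arrays and 7.55, 7.37 and 7.84 in the model arrays.

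Model group 2 stood apart from the other model arrays in genes of the cerebellum. Cerebellar granule cell genes, 14 measured, had medians of 0.28, 2.63 and 0.26 in model groups 1, 2 and 3, and between -0.04 and 0.04 in the control arrays. Gabra6, a GABA-A receptor subunit of these cells, was 5.23, 4.85 and 6.14 in the control arrays and 7.51, 11.35 and 7.81 in the model arrays. Cbln3, a cerebellin of the same cells, was 6.52, 6.34 and 7.14 in the control arrays and 8.56, 12.11 and 8.67 in the model arrays. All 3 model arrays exceeded the control arrays, and model group 2 exceeded the other model arrays by more than 3 log2 units. Of the list, 5 genes lay higher by the rule in all 3 arrays and 7 in model group 2 alone, against 0.261% and 4.65% of all genes. HPYD groups 1, 2 and 3 had medians of -0.09, 0.49 and 2.59 for it, so the array labelled HPYD group 3 was the other array with this level.

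Further genes, named after their values were seen, departed most in model group 2. Car8 and Ppp1r17, genes of Purkinje cells, the output neurons of the cerebellar cortex, differed by 0.61 and 0.51 in model group 1, by 3.89 and 4.88 in model group 2 and by 0.60 and 0.51 in model group 3. Slc6a5, the glycine transporter of brainstem and spinal inhibitory neurons, was 6.01, 6.35 and 6.06 in the control arrays and 7.61, 11.24 and 7.03 in the model arrays. Car8, Ppp1r17 and Slc6a5 met the size rule in all 3 model arrays, whereas Glra1 and Aqp6 met it in model group 2 alone. Glra1, a glycine receptor subunit, was 8.39, 8.59 and 6.44 in the control arrays and 8.22, 11.08 and 7.29 in the model arrays. Control group 3 was the lowest of the 6 arrays for Glra1, and model group 2 the highest. The genes that lay lower in all 3 model arrays with the largest difference in model group 2 included Gabra2, a GABA-A receptor subunit, at 11.06, 10.87 and 11.02 in the control arrays and 10.44, 9.71 and 10.39 in the model arrays, and Nmbr, the neuromedin B receptor, at 8.44, 8.88 and 7.54 and at 7.48, 6.71 and 7.46. Ddx4, an RNA helicase of germ cells, was 5.56, 5.87 and 6.18 in the control arrays and 5.29, 4.78 and 5.06 in the model arrays, with the lowest level also in model group 2. Aqp6 was 5.45, 5.59 and 5.38 in the control arrays, 5.79 in model groups 1 and 3 and 8.39 in model group 2.

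The 1226 genes that lay lower in model group 2 alone held neuronal genes of the cortex. Of 15 genes of cortical and hippocampal excitatory neurons, 10 were among them, against 6.15% of all genes. The medians were -0.03, -1.01 and -0.01. Tbr1, a transcription factor of deep-layer cortical neurons, was 9.72, 9.77 and 10.33 in the control arrays and 9.85, 7.44 and 9.96 in the model arrays. Nrgn, the calmodulin-binding protein neurogranin, was 11.70, 11.70 and 12.06 in the control arrays and 11.90, 10.64 and 11.95 in the model arrays. Fezf2, a factor of corticofugal neurons, was 8.89, 8.93 and 9.04 in the control arrays and 9.37, 6.92 and 9.46 in the model arrays. Model groups 1 and 3 stood among or above the control arrays in these genes, and model group 2 stood at least 1 log2 unit below. Synaptic vesicle and scaffold genes (17, median -0.55 in model group 2), glutamate and GABA-A receptors (16, -0.68), interneuron genes (15, -0.98) and immediate early genes (19, -0.94) were low in the same array. In the other model arrays the medians of these lists lay between -0.13 and 0.08. The array labelled HPYD group 3 had a median of -0.98 for the cortical list, and HPYD groups 1 and 2 had -0.21 and -0.00.

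**Figure D5:**
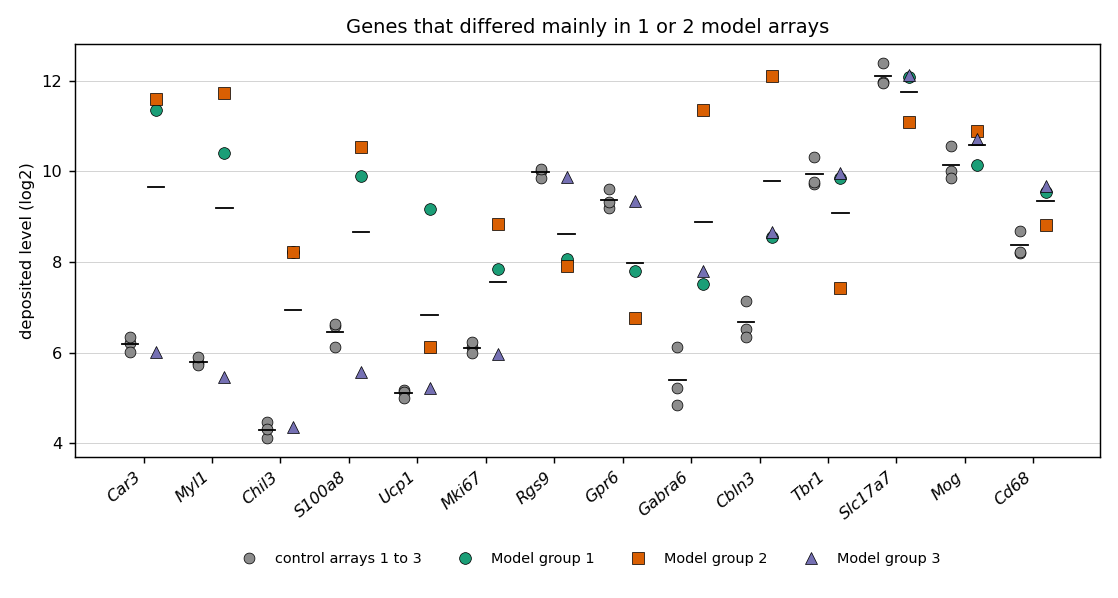
Deposited log2 level (vertical axis) of 14 genes (horizontal axis) in the 3 control arrays (grey) and in model group 1 (green circles), 2 (orange squares) and 3 (violet triangles), with lines at the group means. Muscle, fat, myeloid and dividing-cell genes (Car3 to Mki67) are high in model groups 1 and 2 or in 1 of them, striatal genes (Rgs9, Gpr6) are low in both, and Gabra6, Cbln3 and Tbr1 depart most in model group 2. Cd68 lies highest in model groups 1 and 3.

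The combinations of arrays that carried few genes were also described. In model groups 1 and 3, 28 genes lay higher, among them Cd68, Ly86, a partner of the receptor Cd180 (9.61, 9.66 and 9.56 in the control arrays, 10.61, 9.91 and 10.66 in the model arrays), and Bpifb9b. In model groups 2 and 3, 12 lay higher, among them the myelin genes Mog (10.01, 10.55 and 9.85; 10.15, 10.88 and 10.72) and the oligodendrocyte factor St18. Myelin genes had medians of 0.08, 0.66 and 0.46 in model groups 1, 2 and 3, but 0.37 in control group 2, and choroid plexus genes had 0.44, 0.93 and 0.65 against 1.02 in control group 2. Ttr, the transthyretin of choroid plexus, ranged from 9.26 to 13.15 within the control group. Model group 1 alone carried 155 higher genes, led by the cartilage lectin Clec3a, Neurod4 and Mucl2, and 52 lower, led by the sodium channel subunit Scn4b, the vesicular transporter Slc10a4 and Baiap3. Model group 3 alone carried 33 higher, led by the claudin Cldn2, Tmem267 and C1qc, and 21 lower, led by the peptide galanin (Gal), Chrna3 and Trarg1. The 7 genes lower in model groups 1 and 3 included Ndst4, Abi3bp and the complement inhibitor Cd59a, and the 7 lower in model groups 2 and 3 included Ppp1r1c, the melanocortin receptor Mc3r and the neuropilin Nrp2. Vaultrc5 completed the named genes of model groups 2 and 3 higher, and Kcnv1, Dbpht2 and Cbln1 those of model group 2.

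The study chose 18 genes on these same arrays for RT-qPCR, so their direction here is not independent evidence. On the arrays 17 had a higher model mean, and 16 were higher and 1 lower at an unadjusted p under 0.05, against 2.86% and 1.78% of all genes. None passed the adjusted p over all genes. Their medians were 0.56, 0.58 and 0.25 in model groups 1, 2 and 3. By array they fell into several classes. Ptprc, the leukocyte antigen CD45, was 6.41, 6.30 and 6.30 in the control arrays and 7.73, 7.71 and 6.96 in the model arrays, and Scn9a, a voltage-gated sodium channel, was 7.30, 7.15 and 7.15 in the control arrays and 6.65, 6.59 and 6.19 in the model arrays. These were the 2 that met the size rule in all 3 arrays. Cdk1, Fcgr4, Clec4d, Clec5a, Naip2, Naip5 and Rsad2 met it in model groups 1 and 2, Casp1 and Irgm1 in model group 1, and Apobec3 and Pla2g4a in model group 2. Cdk1, the mitotic kinase, was 5.97, 6.04 and 5.71 in the control arrays and 6.99, 7.66 and 6.20 in the model arrays. App, Ddx3x, Casp4, Ifih1 and Irf7 met it in no array. Of these, App and the X-linked helicase Ddx3x differed by like amounts in all 3 arrays, of 0.36 to 0.44 and 0.27 to 0.40. Without model group 3, Ptprc, Fcgr4 and Naip2 passed limma's adjusted p (0.00512, 0.0200 and 0.0205).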

How the data were processed

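The series holds 9 GeneChip Mouse Gene 1.0 ST arrays of brain RNA, 3 per group. The deposited values are log2 signals that the authors made, and the submitters' processing notes name MAS5; background correction and normalization are named in none of the sources used here. Of 35556 probe sets, 21789 carried 1 symbol, 1621 several, and 12146 have no name in the tables used here. Each of 19938 genes was represented by its brightest probe set (by the mean of all 9 arrays), and 999 genes had several. Array medians of all probe sets lay between 6.69 and 6.82, and the number of arrays limits the precision.

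Model and control arrays were compared with limma 3.58.1 in R 4.3.3 on the 6 arrays (lmFit, eBayes, Benjamini-Hochberg over all genes), after testing on simulated data. Each gene was then classed by array. Named were the calls, the smallest p in each direction, the largest differences of each array combination, leading list members, checks of the labels and the RT-qPCR genes; further list members were named after their values were seen. Members and lists were chosen with earlier results of these data known. Alternatives were scaling, dim genes, probe set choice, arrays fitted, array weights, size, a replicate block, the methods' Student-Newman-Keuls test and leaving out arrays. Promoters were RefSeq's, from GRCm38.p6.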

Additional observations from a re-analysis of the deposited data

Results flagged for a closer look

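The arrays of the HPYD group are outside the fit of model against control. In them 3 list medians lay both at least 1 log2 unit above the control mean and above the highest control array. The median difference of cerebellar granule cell genes from the control mean was 2.59 in the array labelled HPYD group 3, against at most 0.04 in the control arrays. In the same array the choroid plexus genes had a median of 1.16, against 1.02 in the highest control array. In HPYD group 2 the granulocyte genes had a median of 2.08, against 0.08 in the highest control array. Many lists with smaller medians also lay above the highest control array, such as plaque-associated microglia at 0.52 in HPYD group 1 and erythroid precursors at 0.88 in HPYD group 2.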

How the results depend on the processing

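The count of genes that passed limma's adjusted p was 5. It was 2 without the dim genes, 9 with array weights, 0 with all 9 arrays, 0 without model groups 1 and 2 (an alternative chosen after seeing the data) and 0 by the Student-Newman-Keuls test, which gave 137 higher and 150 lower genes before adjustment. Leaving out single arrays gave 2 to 127. With a replicate block it was 3 (Ccl6 at an adjusted p of 0.105), with 736 lower genes at an unadjusted p under 0.05. Same-numbered arrays correlated at -0.0994, 0.180 and 0.164 in their deviations, and differently numbered ones at -0.199 to 0.092. Whether the numbers pair the samples cannot be settled from these values. Lower genes at an unadjusted p under 0.05 numbered 556 with quantile normalization, 567 with arrays shifted to one median, 599 with array weights, 554 without model groups 1 and 2 and 137 to 764 without single arrays. The higher ones numbered 216 to 1224 without single arrays. With a size of 0.3 in place of 0.5, 119 genes were shared higher and 48 lower, 758 and 318 were carried by 2 arrays, and 2121 and 2615 by 1 array. With a size of 1 these were 9 and 3, 172 and 22, and 386 and 367. Without the dim genes, 278 were carried higher by 2 arrays. Leaving out single control arrays gave 42 to 77 shared higher and 13 to 69 shared lower. Leaving out single model arrays gave 64 to 472 and 23 to 97, by a looser rule that asks for only 2 model arrays. Of the genes shared by all 3 arrays, 43 of 52 and 16 of 16 remained with quantile normalization. The log2 difference of Rsad2 reversed, to -0.0043, without model groups 1 and 2. The causes of these changes were not tested.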
